A study of Mus musculus with 24 samples.

Results

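The erythroid and heme synthesis genes described here are 35 named mouse genes that red blood cell precursors use to respond to erythropoietin, make heme and hemoglobin, and build the red cell membrane. They were taken from a written list of symbols, which was chosen with earlier results of these data known. Symbols matched 34 of the 35 among the 55414 genes in the files, and Ahsp, the alpha globin chaperone, was not analysed here. All 34 had at least 1 count in each of the 24 libraries and all 34 passed the filter on low counts in every fit.

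The 24 libraries are RNA-seq of bone marrow cells from C57BL6/J mice, WT or labelled Srcap mutant. SRCAP is a chromatin remodeller that places the histone variant H2A.Z. The label HSPC (hematopoietic stem and progenitor cells) covers 16 libraries in 8 groups of 2: untreated mice, with the word germline in their titles, mice 12 hours after intraperitoneal doxorubicin, a DNA-damaging drug, and mice 2 weeks and 20 weeks after transplantation, each in both genotypes. A further 4 libraries are labelled B cells and 4 T cells in bone marrow, all from 2 weeks after transplantation, with 2 for each genotype. The 20-week transplantation is labelled competitive and, per the series' design text, the cells measured were CD45.2+ donor cells. The headers name the untreated, doxorubicin and 20-week mutants het and the 2-week mutants Mut. They place the files in 3 directories (untreated with doxorubicin, 2 weeks, 20 weeks). Neither age nor the mutant allele is given in the sources used here. Libraries are called independent samples without naming separate mice, so p-values measure the spread between libraries.

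Red cell production starts when progenitors express the erythropoietin receptor (Epor) and the transcription factors GATA1 and KLF1. These switch on the heme pathway, which begins in erythroid cells with the mitochondrial enzyme ALAS2 and ends with ferrochelatase (Fech), then the membrane skeleton and anion exchanger, and last the globins at full level. Carbonic anhydrase 1 (Car1) marks early erythroid progenitors in mice, while Slc4a1 (band 3), Alas2 and the adult globins Hba-a1, Hba-a2, Hbb-bs and Hbb-bt rise late.

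Total counts per library ran from 26369992 to 78432483. The targeted gene Srcap lay between 6.11 and 14.4 CPM (counts per 1000000 counts) in WT HSPCs and between 2.83 and 13.7 CPM in mutant HSPCs, and between 5.7 and 20.3 CPM in the libraries labelled B and T cells. It passed no genotype test, and these values do not check the labels because the kind of mutation is not given. The 2-week libraries held Xist, the RNA of the inactive X chromosome, at 320 CPM or more and the others at 0.484 CPM or less, so sex and directory both change with the 2-week condition. Libraries labelled T cells held the 9 T cell markers at 0.0022% to 0.00334% of counts, below the HSPC libraries' 0.00547% to 0.0135%, and Cd3e at 0.0883 to 1.56 CPM. Taken singly, 3 of the 9 T cell markers were higher there than in HSPCs at 2 weeks and 2 were lower (edgeR, adjusted p below 0.05). Libraries labelled T cells held 11 neutrophil and granulocyte genes at 13.8% to 15.8% of counts. One untreated library, WT replicate 1, held those 11 genes at 2.41% of counts against 0.0307% to 0.0531% in the other 3 untreated libraries. Some results that rest on it are given with and without it. Others, among them calls by DESeq2 or with no filter on counts, are given only with it.

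GATA1 and KLF1 bind short DNA words in erythroid promoters, so the promoters of all members with a RefSeq entry (GRCm38.p6) were read for them, which were 28 of the 35. In the 250 bases before the start, 17 of the 28 (60.7%) held at least 1 GATA word on either strand, against 27.1% of all 27025 promoters in the table. The words searched were AGATAA and its close relative AGATAG, together with the version TGATAA and its relative TGATAG. The KLF word CCNCNCCC, on either strand, was in 16 of the 28 (57.1%), against 45.6% of all, and both words were in 7 of the 28 (25.0%), against 8.28% of all. Neighbouring CCNCNCCC matches may overlap each other. A match describes these letters and is not a measured binding site. The 200 bases before the start are given for 7 members, on each gene's own strand and 5′ to 3′, with GATA and KLF words in capitals. They are the receptor and both factors, the first heme enzyme, the surface protein gene Ermap, and an alpha and a beta globin.
Epor, chr9:21963577-21963776, minus strand: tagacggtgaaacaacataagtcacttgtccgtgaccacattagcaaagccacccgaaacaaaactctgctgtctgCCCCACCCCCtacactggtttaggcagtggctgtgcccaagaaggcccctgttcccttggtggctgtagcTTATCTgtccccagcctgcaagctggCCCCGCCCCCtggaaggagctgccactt
Gata1, chrX:7967911-7968110, minus strand: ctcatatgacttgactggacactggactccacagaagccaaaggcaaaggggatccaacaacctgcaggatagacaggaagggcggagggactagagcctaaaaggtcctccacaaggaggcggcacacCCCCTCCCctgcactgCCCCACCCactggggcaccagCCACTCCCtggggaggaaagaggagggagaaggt
Klf1, chr8:84901782-84901981, plus strand: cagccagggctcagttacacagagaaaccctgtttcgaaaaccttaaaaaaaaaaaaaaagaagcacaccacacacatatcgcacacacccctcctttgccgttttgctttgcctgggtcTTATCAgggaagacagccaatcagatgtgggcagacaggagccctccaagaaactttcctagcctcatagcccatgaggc
Alas2, chrX:150547217-150547416, plus strand: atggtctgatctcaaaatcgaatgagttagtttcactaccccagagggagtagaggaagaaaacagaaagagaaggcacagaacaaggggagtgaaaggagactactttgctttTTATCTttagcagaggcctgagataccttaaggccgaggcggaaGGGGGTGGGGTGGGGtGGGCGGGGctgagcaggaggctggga
Ermap, chr4:119189996-119190195, minus strand: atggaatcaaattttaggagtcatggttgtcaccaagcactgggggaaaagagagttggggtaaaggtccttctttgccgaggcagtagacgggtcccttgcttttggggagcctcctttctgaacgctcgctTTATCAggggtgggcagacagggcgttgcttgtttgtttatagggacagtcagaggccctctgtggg
Hba-a1, chr11:32283472-32283671, plus strand: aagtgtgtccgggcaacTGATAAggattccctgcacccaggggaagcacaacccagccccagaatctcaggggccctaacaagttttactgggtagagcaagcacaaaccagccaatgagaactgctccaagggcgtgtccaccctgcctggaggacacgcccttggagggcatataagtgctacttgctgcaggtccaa
Hbb-bs, chr7:103827929-103828128, minus strand: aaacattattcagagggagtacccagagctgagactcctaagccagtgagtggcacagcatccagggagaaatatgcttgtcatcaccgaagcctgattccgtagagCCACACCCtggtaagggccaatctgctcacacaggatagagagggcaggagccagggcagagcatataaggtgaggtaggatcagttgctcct
The Epor, Alas2, Klf1 and Ermap promoters carry a GATA word on the opposite strand, read as TTATCT or TTATCA, at 54, 86, 80 and 67 bases before the start. The Gata1 window has 3 KLF words and no GATA word. In Hbb-bs the KLF word lies 93 bases before the start, and its GATA word begins 210 bases before it, outside the printed stretch. The Hba-a1 and Hba-a2 promoters were identical over the 247 bases that align, and their annotated transcripts shared 537 aligned bases with 1 mismatch (99.8% identical). Hbb-bs and Hbb-bt transcripts were 93.0% identical. Because fragments that map to several places were not counted, the split of counts within each globin pair is uncertain and fragments common to both copies are missing from their levels.

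At 2 weeks after transplantation, HSPC libraries carried far more RNA of this program than untreated HSPCs. The 34 members took 0.479% to 0.637% of counts in the 4 libraries at 2 weeks, against 0.0898% to 0.127% in the 4 untreated ones. Of the 34 members, 32 rose and 1 fell (edgeR quasi-likelihood, Benjamini-Hochberg adjusted p below 0.05, genotypes averaged). Over all 19522 genes tested, 46.1% were called, 21.2% up and 24.9% down. The median log2 fold change was 3.96 over the members and -0.14 over all genes. In CPM, all 4 libraries at 2 weeks lay above all 4 untreated ones for 26 of the 34, against 23.4% of 13331 genes of at least 1 CPM. Without untreated WT replicate 1 the counts were again 32 and 1, with a median of 4.94. In bulk RNA, more erythroid cells and more erythroid RNA per cell cannot be told apart, nor can the condition be told apart from sex or directory. Gata1 and Alas2 lie on the X chromosome.

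**Figure D1:**
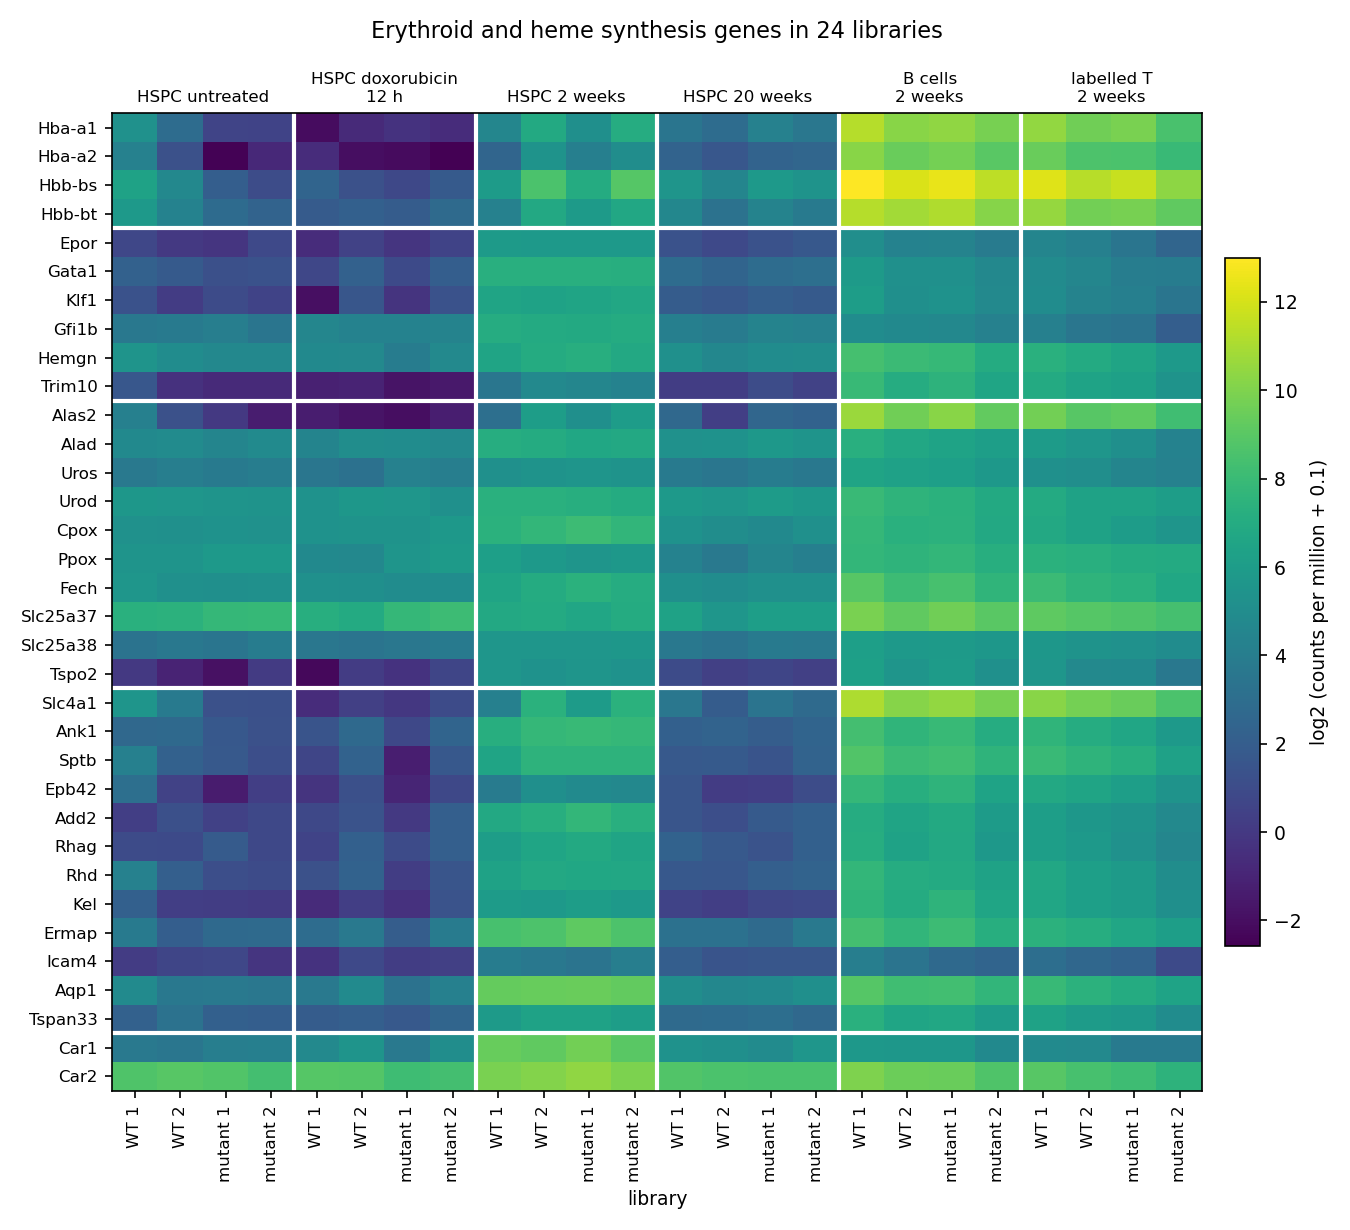
Level of each of the 34 members (rows, grouped by role with white lines) in each of the 24 libraries (columns), as log2 of CPM + 0.1. The 4 HSPC libraries at 2 weeks stand above all 4 untreated ones for 26 genes and above all 4 at 20 weeks for 32, and the B cell and labelled T cell libraries are highest for the globins, Alas2 and Slc4a1.

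All 6 genes of the receptor and transcription factor group rose. Epor was at 1.55, 0.898, 0.799 and 1.68 CPM in the untreated libraries (WT replicates 1 and 2, then mutant replicates 1 and 2) and at 59, 56.8, 56.7 and 56.4 CPM at 2 weeks. The 2 sets did not overlap, and the rise was 49.6-fold (log2 5.63 ± 0.31 SE, adjusted p = 9.03e-10). Gata1 went from 4.67, 3.45, 2.21 and 2.42 CPM to 155, 149, 150 and 146 CPM, a log2 fold change of 5.70 ± 0.36. Klf1, a factor that GATA1 switches on, reached 91.1, 83.1, 92.3 and 109 CPM from 1.04 to 2.39 CPM. Gfi1b, a repressor needed by erythroid and megakaryocyte cells, had the smallest adjusted p of all members. Its mean level per length over the 16 HSPC libraries was the highest of this group, though Hemgn was higher in untreated and 20-week HSPCs. Gfi1b was at 12.6, 14.5, 17.1 and 11.2 CPM in untreated and 134, 125, 116 and 131 CPM in 2-week libraries, a 9.69-fold rise (adjusted p = 6.57e-12). Hemgn rose 4.07-fold and Trim10, an erythroid RING-finger gene, 22.3-fold. Counts of Epor per count of Gata1 were 0.377 to 0.385 in all 4 libraries at 2 weeks.

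Of the 10 heme synthesis and mitochondrial carrier genes, 8 rose, 1 fell and 1 did not pass. Cpox, which makes protoporphyrinogen, rose 5.73-fold, from 37.9 to 40.6 CPM in untreated libraries to 163, 209, 275 and 205 CPM. Alad, the enzyme of the second step, rose 4.65-fold to 140, 126, 104 and 114 CPM, and Urod, a cytosolic enzyme of the middle of the pathway, 3.36-fold. Slc25a38, the mitochondrial glycine carrier, rose 4.25-fold, Fech 3.42-fold and Uros 3.03-fold. Tspo2, an erythroid relative of the translocator protein, showed a 78-fold rise from levels of 0.171 to 0.991 CPM. Alas2 rose 18.5-fold (adjusted p = 0.00703), with 18.2, 2.3, 0.894 and 0.303 CPM in untreated libraries and 8.55, 67.2, 35.4 and 66.4 CPM at 2 weeks. The 2 sets overlapped for Alas2, since untreated WT replicate 1 lay above WT replicate 1 at 2 weeks. Slc25a37 (mitoferrin 1, the mitochondrial iron carrier) went the other way and fell by 0.66 on the log2 scale (adjusted p = 0.000329). It was at 160, 176, 219 and 231 CPM in untreated and 114, 121, 99 and 129 CPM in 2-week libraries, which did not overlap. Ppox, the enzyme before Fech, was 0.29 ± 0.12 higher on the log2 scale and did not pass (adjusted p = 0.0656).

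All 12 membrane, blood group and channel genes rose, by log2 fold changes of 3.57 to 6.73. Add2, the beta adducin of the membrane skeleton, rose 106-fold, from 1.13 to 2.24 CPM in untreated libraries to 113, 148, 212 and 154 CPM. Aqp1, the water channel with the highest level per length of the group in HSPCs, rose from 29.1, 12.6, 13.2 and 12.1 CPM to 634, 672, 693 and 613 CPM, which is 42.7-fold. Ermap, an erythroid surface protein that carries the Scianna blood group in humans, went from 13.8, 4.1, 6.55 and 6.94 CPM to 348, 404, 552 and 399 CPM. Ank1 (ankyrin) rose 51.4-fold, Rhag 44.7-fold and Kel 37.1-fold, and Sptb (beta spectrin) 29.4-fold. Rhd rose 22.3-fold, Epb42 (protein 4.2) 15.5-fold, Tspan33 14-fold and Icam4 11.9-fold. Slc4a1, the anion exchanger, had the widest spread of the 34 members between the 2-week libraries, with 46.3, 14.4, 2.34 and 2.2 CPM in untreated libraries and 18, 167, 61.6 and 165 CPM at 2 weeks (13.1-fold, adjusted p = 0.00571).

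Both carbonic anhydrases rose. Car1 stood at 13, 11.7, 16.7 and 17.8 CPM in untreated libraries and 659, 598, 834 and 526 CPM at 2 weeks, a 47.7-fold rise. Car2, the general red cell enzyme, was already at 417, 487, 440 and 322 CPM in untreated HSPCs and rose 2.79-fold to 937, 1100, 1350 and 972 CPM. Per length of transcript, Car1 was the highest member at 2 weeks (mean 524 RPKM, CPM per kilobase of exon, over 4 libraries), followed by Car2 (450 RPKM), Hbb-bs (344 RPKM) and Aqp1 (248 RPKM). The ranges of Car1 and Car2, at 421 to 668 and 387 to 558 RPKM, overlapped, so their order is not fixed by these libraries. In untreated HSPCs Car2 led with 172 RPKM and its range of 133 to 201 RPKM lay above that of every other member.

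Globins rose by log2 fold changes of 2.37 to 4.43, and all 4 passed. Hbb-bs was at 83.4, 25.6, 4.05 and 1.93 CPM in untreated libraries and at 61.9, 383, 129 and 482 CPM at 2 weeks (log2 4.43 ± 0.82, adjusted p = 0.00219). The sets overlapped, because untreated WT replicate 1 was above WT replicate 1 at 2 weeks. Within the 2-week libraries the globins differed 5.57-fold to 7.78-fold between the highest and the lowest library, Alas2 7.86-fold and Slc4a1 9.26-fold, whereas the 6 genes of the receptor and factor group differed 1.05-fold to 2.3-fold. Hbb-bs counts per Gata1 count were 0.4 and 2.57 in WT and 0.858 and 3.29 in mutant libraries. The lower value in each genotype belongs to replicate 1.

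Markers of other cells moved beside these genes at 2 weeks. All 9 stem and progenitor markers fell, with a summed share of 0.111% to 0.15% of counts against 0.294% to 0.369% untreated. Among basophil and mast cell markers 6 of 8 rose (0.018% to 0.0338% against 0.00218% to 0.0132%), as did 6 of 8 macrophage markers (0.0126% to 0.0157% against 0.00601% to 0.00902%). Of the 8 megakaryocyte and platelet markers tested, 5 rose (0.0162% to 0.0323% against 0.00462% to 0.00836%), with Gp1bb and Gp6 at 0 in 2 or more libraries of each set. Of 11 neutrophil and granulocyte genes 2 rose, Mpo and Elane, at 0.548% to 0.945% of counts against 0.0307% to 2.41%. Of 9 B cell markers 7 fell. The part of these cells in the rise of the members was not tested.

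**Figure D2:**
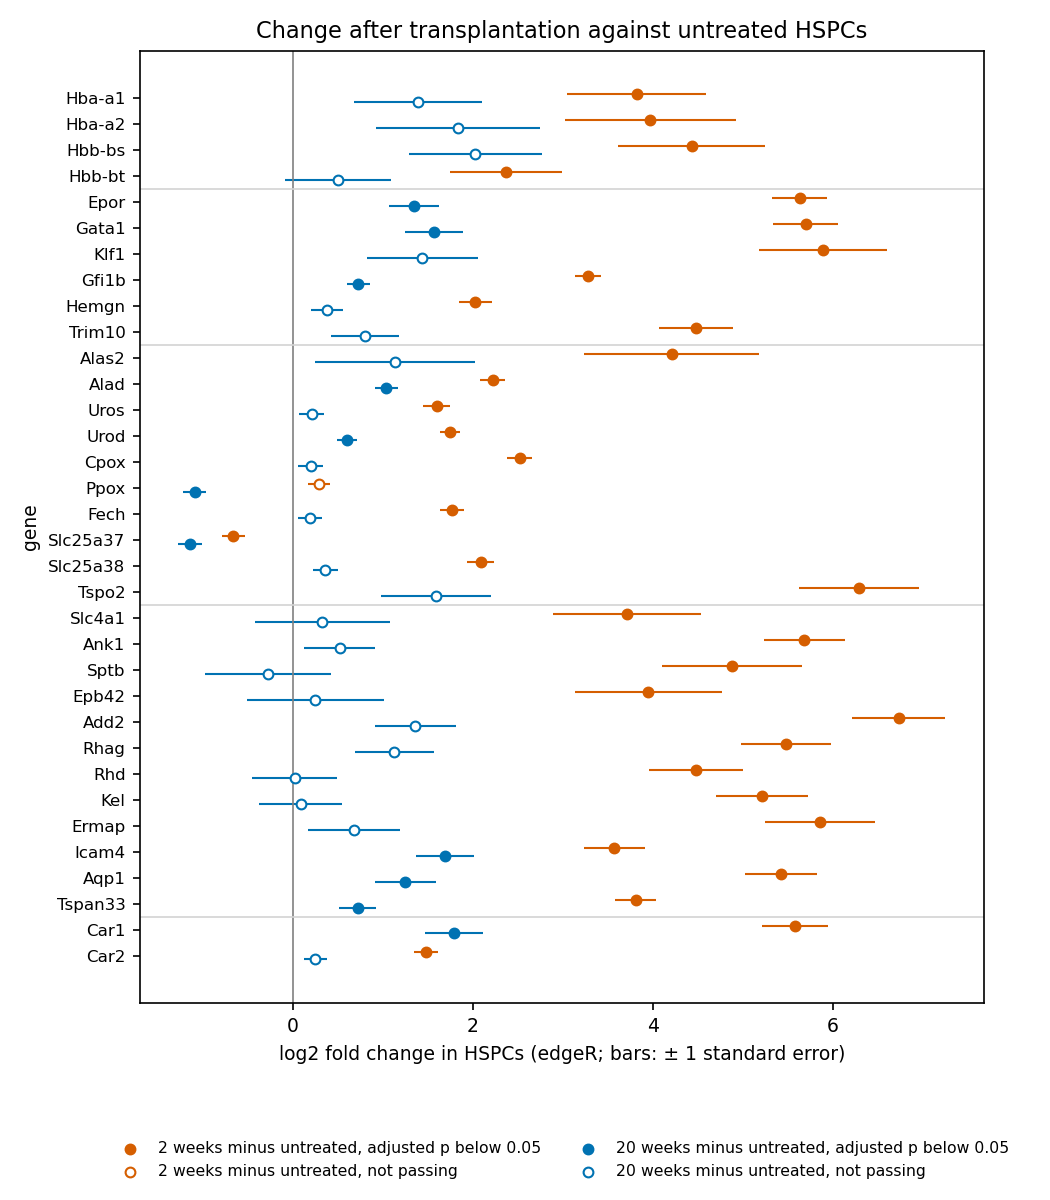
Log2 fold change of each member in HSPCs at 2 weeks (orange) and at 20 weeks (blue) against untreated HSPCs, with bars of 1 standard error; filled points passed an adjusted p of 0.05. At 2 weeks only Slc25a37 lies below 0, and at 20 weeks Slc25a37 and Ppox are the 2 members that fell.

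At 20 weeks the members took 0.0814% to 0.104% of counts, a range that overlapped the untreated one. Of the 34, 9 rose and 2 fell, where 23.6% of all genes were called, 13.1% up and 10.6% down, and the median log2 fold change was 0.70 over members and 0.02 over all genes. Both comparisons use the same 4 untreated libraries. The 20-week and untreated libraries lie in different directories, so the 20-week condition cannot be told apart from directory. Those that rose were Alad (2.05-fold), Gfi1b (1.66-fold), Urod (1.52-fold), Icam4 (3.24-fold), Epor (2.54-fold), Car1 (3.47-fold), Gata1 (2.97-fold), Tspan33 (1.64-fold) and Aqp1 (2.38-fold). Adjusted p ran from 3.44e-05 for Alad to 0.0281 for Aqp1. Gata1 was at 7.42, 5.42, 7.46 and 8.38 CPM (WT 1 and 2, mutant 1 and 2), above all 4 untreated libraries. Car1 was at 41.5, 36.5, 30.8 and 48.3 CPM and Alad at 39.5, 40.7, 52.5 and 43.7 CPM, likewise with no overlap. Slc25a37 fell by 1.14 to 85.4, 48.1, 72.2 and 71.4 CPM, and Ppox fell by 1.09 to 20, 13.2, 22.9 and 17.6 CPM from 45.3, 45.3, 54.5 and 54.6 CPM. The 4 globins gave log2 values of 0.50 to 2.03 ± 0.59 to 0.91 SE and did not pass. With no filter on counts, 23 members were called at 20 weeks in place of 11, where 16.6% of all genes were called. Tspan33 no longer passed when untreated WT replicate 1, either untreated mutant, 20-week WT replicate 2 or 20-week mutant replicate 1 was left out, and its log2 fold change was then 0.50 to 0.75. Markers of other cells moved here too: 6 of 8 megakaryocyte and platelet markers tested rose (0.0135% to 0.0182% of counts against 0.00462% to 0.00836% untreated), and 5 of 8 macrophage markers rose (0.00712% to 0.0114% against 0.00601% to 0.00902%). Of 11 neutrophil and granulocyte genes 8 fell, at 0.021% to 0.03% of counts. Untreated WT replicate 1 held 2.41% and the other untreated libraries 0.0307% to 0.0531%. Their part in the values of the members was not tested.

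All 4 libraries at 2 weeks lay above all 4 at 20 weeks for 32 of the 34 members, the exceptions being Hba-a2 and Hbb-bt, against 35.4% of 13097 genes. The 2-week and 20-week libraries also differ in sex, read from Xist, and in directory, and time cannot be told apart from these. Immunoglobulin genes took 16.9% to 26.7% of counts at 20 weeks and 0.848% to 1.86% at 2 weeks, which lowers CPM of other genes at 20 weeks. Leaving those genes out gave 9 members up and 2 down against untreated HSPCs at 20 weeks, and 32 up and 1 down at 2 weeks.

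Doxorubicin is given to damage DNA in dividing cells. After 12 hours, 0 of 34 members passed against untreated HSPCs, where 0.0154% of all genes were called, and 10 members were under 0.05 before adjustment, as were 5.96% of all genes. DESeq2 called 6 members and 0.325% of all genes, and edgeR with no filter on counts called 12 members and 1.43% of all genes. The 4 with the smallest p were Gfi1b, Trim10, Hba-a1 and Ppox. Gfi1b was at 23.8 and 20.2 CPM in WT, against 20.2 and 20.4 CPM in mutant libraries, above all untreated libraries, with a log2 difference of 0.63 ± 0.13 (edgeR adjusted p = 0.154). Trim10 was at 0.191 to 0.397 CPM, a difference of -1.72 ± 0.42 (adjusted p = 0.294). Hba-a1 was at 0.136 to 0.705 CPM, which is at least 5 counts a library, against 1.38 to 40 CPM untreated (-3.66 ± 0.88, adjusted p = 0.542). Ppox differed by -0.38 ± 0.12 (adjusted p = 0.673). Markers of other cells moved here too. All 8 macrophage markers were lower after doxorubicin (median log2 difference -1.06), and 1 passed. Of 11 neutrophil and granulocyte genes 9 were lower and 2 higher (-2.52), and 0 passed. These 11 genes took 0.0222% to 0.0587% of counts after doxorubicin. Untreated WT replicate 1 held 2.41% and the other untreated libraries 0.0307% to 0.0531%, which overlaps the doxorubicin range. Of 9 B cell markers 7 were higher and 2 lower (0.2), and 0 passed. Their part in the values of the members was not tested. Untreated WT replicate 1 was the highest of the 4 untreated libraries for 18 of 34 members, and without it the differences were -0.97 for Trim10 and -2.82 for Hba-a1, with 0 calls. Leaving out untreated WT replicate 2 gave 2 calls, Gfi1b (log2 0.68, adjusted p = 0.0271) and Trim10 (-2.07, adjusted p = 0.00256), and leaving out untreated mutant replicate 1 gave 1, Gfi1b.

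**Figure D3:**
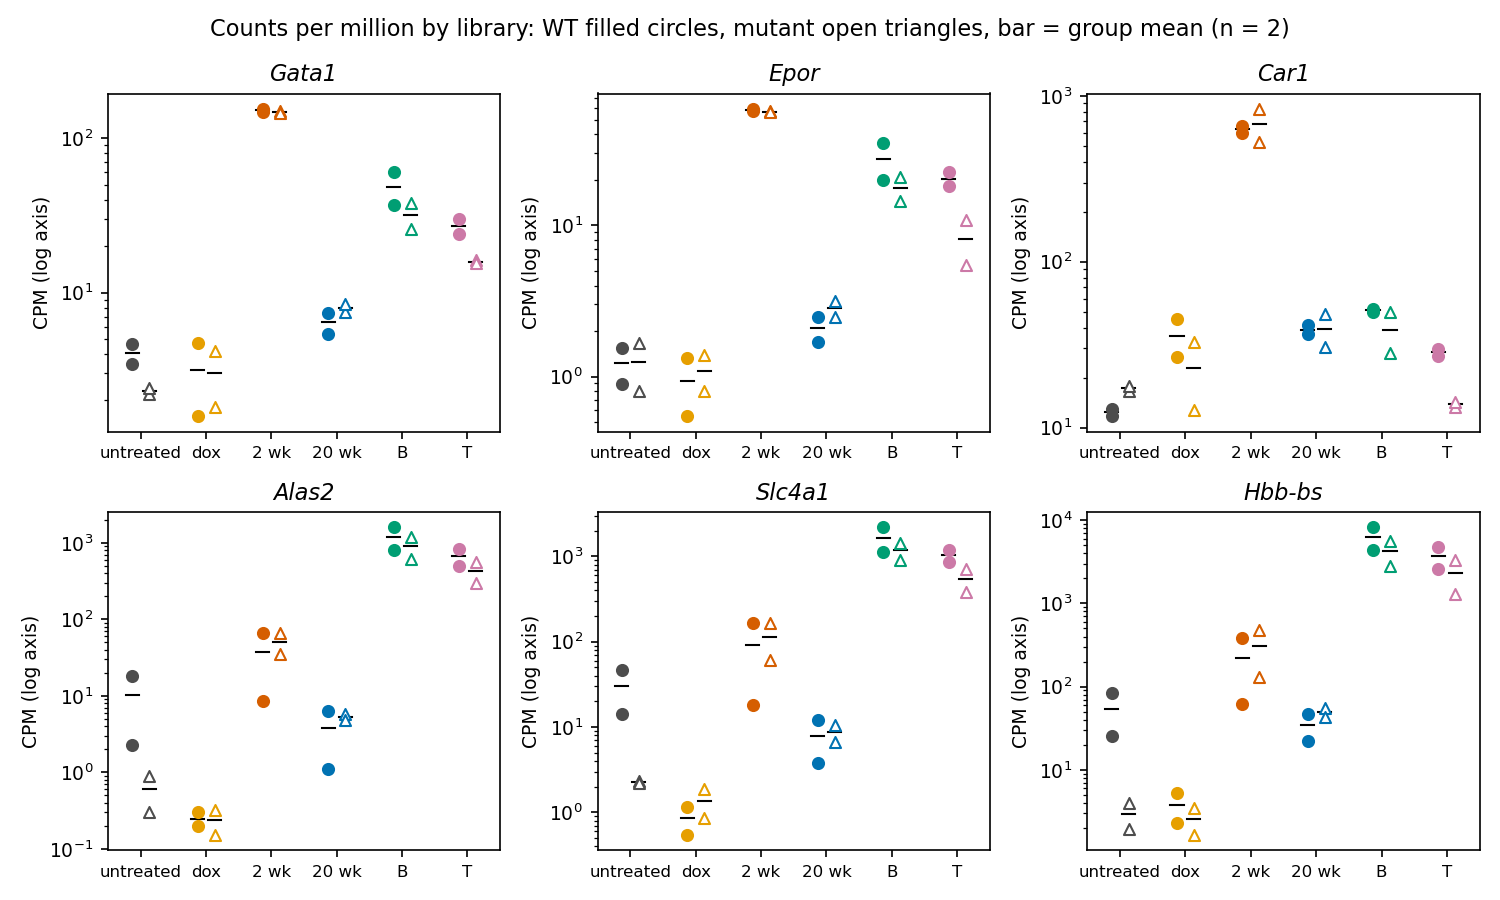
CPM (log axis) of 6 members in every library: HSPCs untreated, 12 hours after doxorubicin (dox), 2 and 20 weeks after transplantation, and the 2-week libraries labelled B and T. Gata1, Epor and Car1 are highest in HSPCs at 2 weeks, whereas Alas2, Slc4a1 and Hbb-bs are highest in the libraries labelled B and T cells.

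Libraries labelled B cells and T cells at 2 weeks also held this program, in other proportions. The 34 members took 1.01% to 2.51% of counts in B cell libraries and 0.476% to 1.42% in labelled T cell libraries, of which the 4 globins took 0.538% to 1.43% and 0.25% to 0.844%. Against HSPCs at 2 weeks, 17 of 34 members were higher in B cell libraries and 7 lower, where 53.9% of 19018 genes were called, 28.3% up and 25.5% down. The median log2 difference was 0.48 over members and 0.06 over all genes. In the libraries labelled T cells 14 members were higher and 11 lower, where 61.9% of genes were called, 32.6% up and 29.3% down, with medians of 0.20 and 0.03. Both comparisons share the 4 HSPC libraries. By role, B cell libraries were higher for 4 of 4 globins, 7 of 10 heme genes and 4 of 12 membrane genes. They were lower for 4 of 6 genes of the receptor and factor group, 2 membrane genes and 1 carbonic anhydrase.

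All 4 globins were higher than in HSPCs, by 20.5-fold for Hba-a1 to 35.8-fold for Hba-a2. Hbb-bs was at 8200, 4410, 5630 and 2830 CPM in B cell libraries and 4810, 2590, 3350 and 1300 CPM in labelled T cell libraries, each above all HSPC libraries. Alas2 stood at 1590, 801, 1200 and 609 CPM in B cell libraries, 25.7-fold above HSPCs (adjusted p = 0.00242), and Slc4a1 at 2190, 1140, 1450 and 898 CPM, 14.9-fold above. Smaller adjusted p belonged to Ppox (3.6-fold, adjusted p = 1.94e-08), Slc25a37 (6.69-fold, adjusted p = 1.04e-07) and Uros (1.9-fold). Ppox and Slc25a37 were thus higher here while neither rose in HSPCs at 2 weeks. Trim10 was 8.6-fold and Epb42 6.43-fold higher. Kel, Fech, Hemgn, Slc25a38, Sptb and Urod were higher by log2 differences of 0.39 to 1.46.

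The 7 members lower in B cell libraries included Car1 and the factors Gata1, Klf1 and Gfi1b. Car1 was at 51.8, 50, 49.9 and 28.1 CPM, 13.5-fold below HSPCs (adjusted p = 8.29e-08). Gata1 was at 60.1, 36.9, 38 and 25.8 CPM (log2 -1.81 ± 0.16) and Gfi1b at 32, 28.1, 25.8 and 19 CPM (-2.15 ± 0.26). Epor (-1.25), Klf1 (-1.03), Aqp1 (-0.92) and Ermap (-0.73) were lower as well. The call of Ermap was lost without any 1 of the 4 HSPC libraries or without replicate 2 of either B cell group (adjusted p 0.0696 to 0.189). Libraries labelled T cells gave the same direction for these 7, at -4.21 for Car1, -2.77 for Gfi1b, -2.02 for Gata1, -1.44 for Klf1, -1.32 for Epor, -1.29 for Aqp1 and -1.04 for Ermap, and 4 more were lower there: Car2, Alad, Add2 and Cpox. The 14 higher there had log2 differences of 0.57 to 4.91 and included Ppox (2.13), Slc25a37 (2.76), Trim10 (2.79), Epb42 (2.34), Alas2 (4.45), Hba-a2 (4.91), Hbb-bt (4.48) and Slc25a38 (0.57). Car2 no longer passed without mutant HSPC replicate 1 (adjusted p = 0.0521), nor did Aqp1 in B cell libraries (adjusted p = 0.0553).

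Ratios within a library, which sequencing depth cannot change, showed the same split. Hbb-bs counts per Gata1 count were 110 to 148 in B cell and 83.3 to 207 in labelled T cell libraries, against 0.4 to 3.29 in HSPCs at 2 weeks. Slc4a1 counts per Gata1 count were 31 to 38.1 and 24.5 to 43.7, against 0.117 to 1.12. Car1 counts per Gata1 count were 0.863 to 1.36 and 0.83 to 1.15, against 3.59 to 5.55. Untreated HSPCs were spread, with Slc4a1 per Gata1 at 9.91 and 4.16 in WT and 1.06 and 0.909 in mutant libraries. The ratio of beta to alpha globin counts was 2.8 to 3.54 in B cell and 2.92 to 3.26 in labelled T cell libraries. Fragments that map to several places were not counted, and transcript identity is 99.8% in the alpha pair and 93.0% in the beta pair. The ratio of counts is therefore not a measure of the ratio of RNA.

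**Figure D4:**
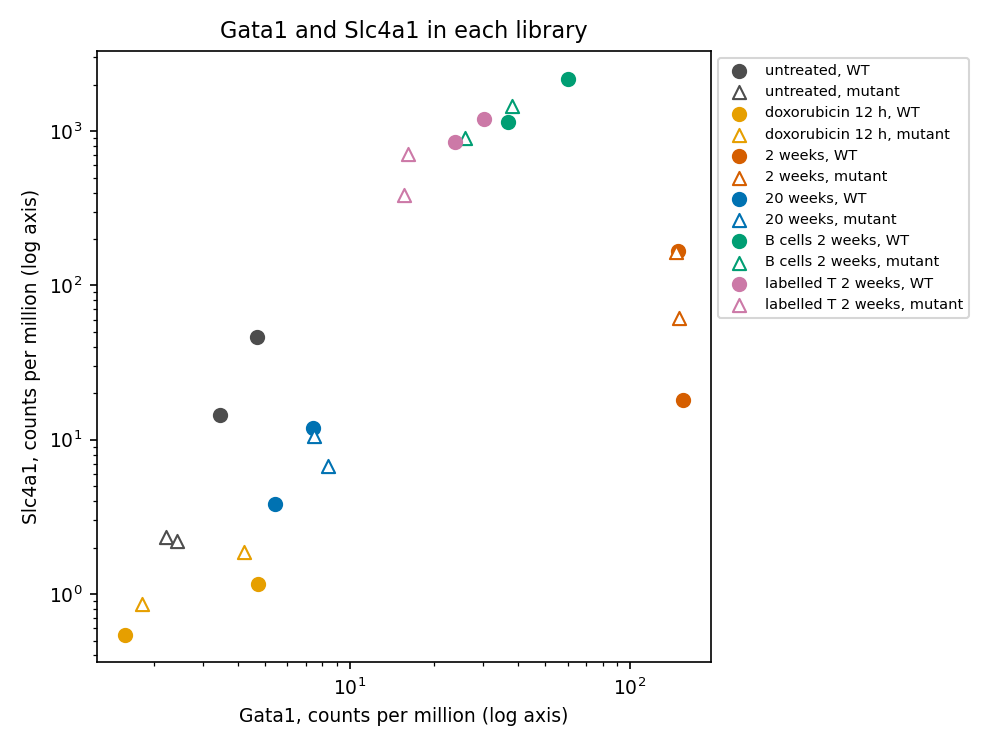
CPM of Gata1 (x axis) and Slc4a1 (y axis), both on log axes, with 1 point for each of the 24 libraries. HSPCs at 2 weeks have the highest Gata1 (146 to 155 CPM) with Slc4a1 at 18 to 167 CPM, while B cell libraries have the highest Slc4a1 (898 to 2190 CPM) at a lower Gata1 (25.8 to 60.1 CPM).

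Between the B cell and labelled T cell libraries 2 members passed, Uros (log2 0.72 ± 0.13, adjusted p = 0.000213) and Alad (0.63 ± 0.19, adjusted p = 0.0163), both higher in B cell libraries, where 52.9% of genes were called, 27% up and 25.9% down. The median was 0.30 over members and 0.16 over all genes. Without WT B cell replicate 1, mutant B cell replicate 1 or WT labelled T replicate 2, Alad no longer passed (adjusted p 0.0584 to 0.0687). Before any threshold 31 of 34 members had a higher fitted level in B cell libraries, where 55.1% of all genes did. The 3 lower in the fit were Ppox (-0.28), Slc25a38 (-0.14) and Slc25a37 (-0.02). Their mean CPM was higher in B cell libraries, at 189 against 141, 60.8 against 41.1 and 710 against 442. Hbb-bs was 1.08-fold higher in the fit and did not pass (adjusted p = 0.951). In CPM all 34 members were higher in the B cell library of all 4 B and T pairs with the same header name. The fit did not pair these libraries, and the share of all genes doing so is not given here. The 8 libraries also differed within groups. All 34 members were higher in replicate 1 than in replicate 2 of both B cell groups and of the WT labelled T cell group, and 33 of 34 in the mutant one, by medians of 1.36-fold to 1.62-fold, where the median over all genes was 0.993 to 1.01. B cell markers held 1.6% to 2.0% of counts in B cell libraries and 0.365% to 0.845% in HSPCs at 2 weeks. Their share was 1.29% to 2.37% in untreated HSPCs and 4.78% to 9.29% in HSPCs at 20 weeks. Against HSPCs at 2 weeks, 8 of the 9 markers were higher in B cell libraries and 0 lower. The share of erythroid cells in these sorts was not measured, and the part of such cells in the levels was not tested.

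The mutant comparison asks how a Srcap mutation changes these genes in each setting, and no member passed in any of the 7 genotype tests (edgeR with the filter on low counts). With no filter on counts edgeR called 14 members in untreated HSPCs, 8 after doxorubicin, 12 for the mean over HSPC conditions, 3 in B cell and 5 in labelled T cell libraries, and 0 at 2 and at 20 weeks. The shares of all genes called in those 7 fits were 1.58%, 1.61%, 2.09%, 2.3%, 0.565%, 1.35% and 0.505%. All 34 members pass the filter, so leaving it out changed their errors and not their counts. For Hba-a2 in untreated HSPCs the SE was 0.45 in place of 1.48 at the same log2 difference of -5.43. For Ppox after doxorubicin it was 0.2 in place of 0.18. In untreated HSPCs 0 of 34 passed, where 0% of all genes were called, while DESeq2 called 6, all lower in mutants, and 0.511% of all genes. An unadjusted p under 0.05 was found for 12 members and for 4.82% of all genes. The median log2 difference was -0.36 over members and 0.02 over all genes, and 27 of 34 were lower. Both mutant libraries lay below both WT ones for 17 of the 34, against 16% of 13510 genes. Trim10 was at 3.1 and 0.673 CPM in WT libraries against 0.495 and 0.496 CPM in mutant ones (-1.95 ± 0.56, adjusted p = 0.718). Hba-a2 was at 19.4 and 2.3 against 0.0761 and 0.468 CPM (-5.43 ± 1.48), Rhd at 19 and 4.29 against 2.11 and 1.85 CPM (-2.58 ± 0.71), and Hba-a1 at 40 and 7.46 against 1.43 and 1.38 CPM (-4.11 ± 1.12), each with an adjusted p of 0.786. In all 4 genes WT replicate 1, the library rich in granulocyte genes, was several times above WT replicate 2. Without it the log2 differences were -0.46 for Trim10, -3.19 for Hba-a2, -1.13 for Rhd and -2.43 for Hba-a1. The median over members ran from -0.67 to -0.3 when 1 of the 4 untreated libraries was left out. The part of granulocytes in these values was not tested. Without WT replicate 2 instead, Trim10 and Rhd passed (adjusted p = 0.00338 and 0.00333).

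After doxorubicin 0 of 34 passed in edgeR, where 0.0154% of genes were called. Before adjustment 4 members were under 0.05, as were 9.79% of all genes. These 4 were also the ones that DESeq2 called, where it called 1.03% of all genes. Ppox was at 28.1 and 25.7 CPM in WT, against 47.3 and 58.8 CPM in mutant libraries, with a log2 difference of 0.92 ± 0.18 (adjusted p = 0.0825 in edgeR and 0.000695 in DESeq2). Slc25a37 was at 145 and 124 against 219 and 272 CPM (0.81 ± 0.18, adjusted p = 0.14), and Uros at 11.4 and 9.24 against 18.9 and 17.2 CPM (0.75 ± 0.20, adjusted p = 0.207). Car2 was at 478 and 465 against 284 and 327 CPM (-0.69 ± 0.18, adjusted p = 0.198). With the 4 doxorubicin libraries fitted alone, Ppox, Slc25a37 and Car2 passed at an adjusted p of 0.0215.

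In HSPCs at 2 weeks 0 of 34 passed (0.138% of genes called), with 2 at an unadjusted p under 0.05 (8.76% of all genes) and 0 by DESeq2. Fech had the smallest p, at 93.3 and 131 CPM in WT, against 162 and 136 CPM in mutant libraries (0.44 ± 0.18, adjusted p = 0.498). It was followed by Ppox (-0.39 ± 0.18), Cpox (0.40 ± 0.19) and Alad (-0.26 ± 0.18). At 20 weeks 0 of 34 passed (0.00512% of genes called), with 0 at an unadjusted p under 0.05 (3.8% of all genes) and 0 by DESeq2. The smallest p belonged to Ppox (0.27 ± 0.18), Gfi1b (0.26 ± 0.18), Alad (0.22 ± 0.18) and Slc25a38 (0.23 ± 0.20), each with an adjusted p of 1. For the mean over the 4 HSPC conditions 0 of 34 passed (0.133% of genes called), with 5 at an unadjusted p under 0.05 (9.88% of all genes) and 0 by DESeq2. Slc25a37 (0.32 ± 0.09, adjusted p = 0.194), Ppox (0.26 ± 0.09), Car2 (-0.23 ± 0.09) and Uros (0.24 ± 0.10) came first. The genotype effect after doxorubicin, at 2 weeks and at 20 weeks was compared with that in untreated HSPCs, and 0 of 34 passed in each (0% of genes called). Before adjustment 7, 11 and 7 members were under 0.05, as were 2.82%, 7.34% and 4.66% of all genes. By DESeq2 the counts of members were 0, 1 and 0, and with no filter on counts edgeR called 11, 12 and 13, where it called 1.14%, 1.59% and 1.27% of all genes. Those with the smallest p were Uros (0.80), Ppox (0.68), Hba-a1 (5) and Slc4a1 (4.36) after doxorubicin, and Trim10 (2.18), Fech (0.70), Hbb-bs (4.64) and Hba-a1 (4.38) at 2 weeks. At 20 weeks they were Trim10 (2.48), Rhd (3.15), Hba-a1 (4.81) and Hba-a2 (5.83). Without untreated WT replicate 1, Hba-a1 stood at 3.33, 2.70 and 3.12 in the 3 comparisons and Trim10 at 0.68 and 0.99 at 2 and 20 weeks.

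In B cell libraries all 34 members had a lower fitted level in mutants, with a median log2 difference of -0.49 against -0.01 over all genes, and 0 passed (0.641% of genes called, 0 members by DESeq2). An unadjusted p under 0.05 was found for 3 members and 11% of all genes. Both mutant libraries lay below both WT ones for 9 of the 34, against 21.8% of 12696 genes. Icam4 was at 17.1 and 10.6 CPM in WT, against 6.67 and 5.33 CPM in mutant libraries (-1.21 ± 0.42, adjusted p = 0.3), Uros at 90.1 and 81.2 against 75 and 52.6 CPM (-0.43 ± 0.16), and Gata1 at 60.1 and 36.9 against 38 and 25.8 CPM (-0.61 ± 0.25). Urod differed by -0.60 ± 0.26. Without WT replicate 1 the median was -0.08, without mutant replicate 2 it was -0.17, and without mutant replicate 1 it was -0.90 and 2 members passed. Markers of other cells were lower in mutant B cell libraries as well: all 11 neutrophil and granulocyte genes (median log2 difference -0.74), 8 of 9 T cell markers (-0.94), 7 of 8 macrophage markers (-0.60), 5 of 6 megakaryocyte markers (-0.71) and all 6 basophil and mast cell markers tested (-0.75). Of these, 1 macrophage marker passed. The B cell markers were higher in 8 of 9 (0.18) and none passed. The part of these cells in the members' values was not tested.

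In libraries labelled T cells all 34 members were again lower in mutants, with a median of -0.78 against 0 over all genes, and 0 passed (0.0114% of genes called, 0 members by DESeq2). An unadjusted p under 0.05 was found for 6 members and 5.72% of all genes. Both mutant libraries lay below both WT ones for 29 of the 34, against 27.8% of 11795 genes. Uros was at 38.4 and 34.1 CPM in WT, against 22.3 and 19.1 CPM in mutant libraries (-0.74 ± 0.16, adjusted p = 0.403), and Car1 at 29.6 and 27.2 against 13.4 and 14.2 CPM (-0.97 ± 0.22, adjusted p = 0.406). Epor was at 22.4 and 18.1 against 10.8 and 5.46 CPM (-1.25 ± 0.39) and Gata1 at 30.1 and 23.8 against 16.2 and 15.6 CPM (-0.70 ± 0.25). The median ran from -1.14 to -0.41 when 1 library was left out. No marker of another cell type passed here. Of those tested, 5 of 6 megakaryocyte markers (median -0.85), 8 of 9 T cell markers (-0.57) and all 9 B cell markers (-0.30) were lower in mutants, and 9 of 11 neutrophil and granulocyte genes were higher (0.19). Their part in the members' values was not tested. Members of 1 program share the makeup of a library, so 34 genes in 1 direction are not 34 separate observations.

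**Figure D5:**
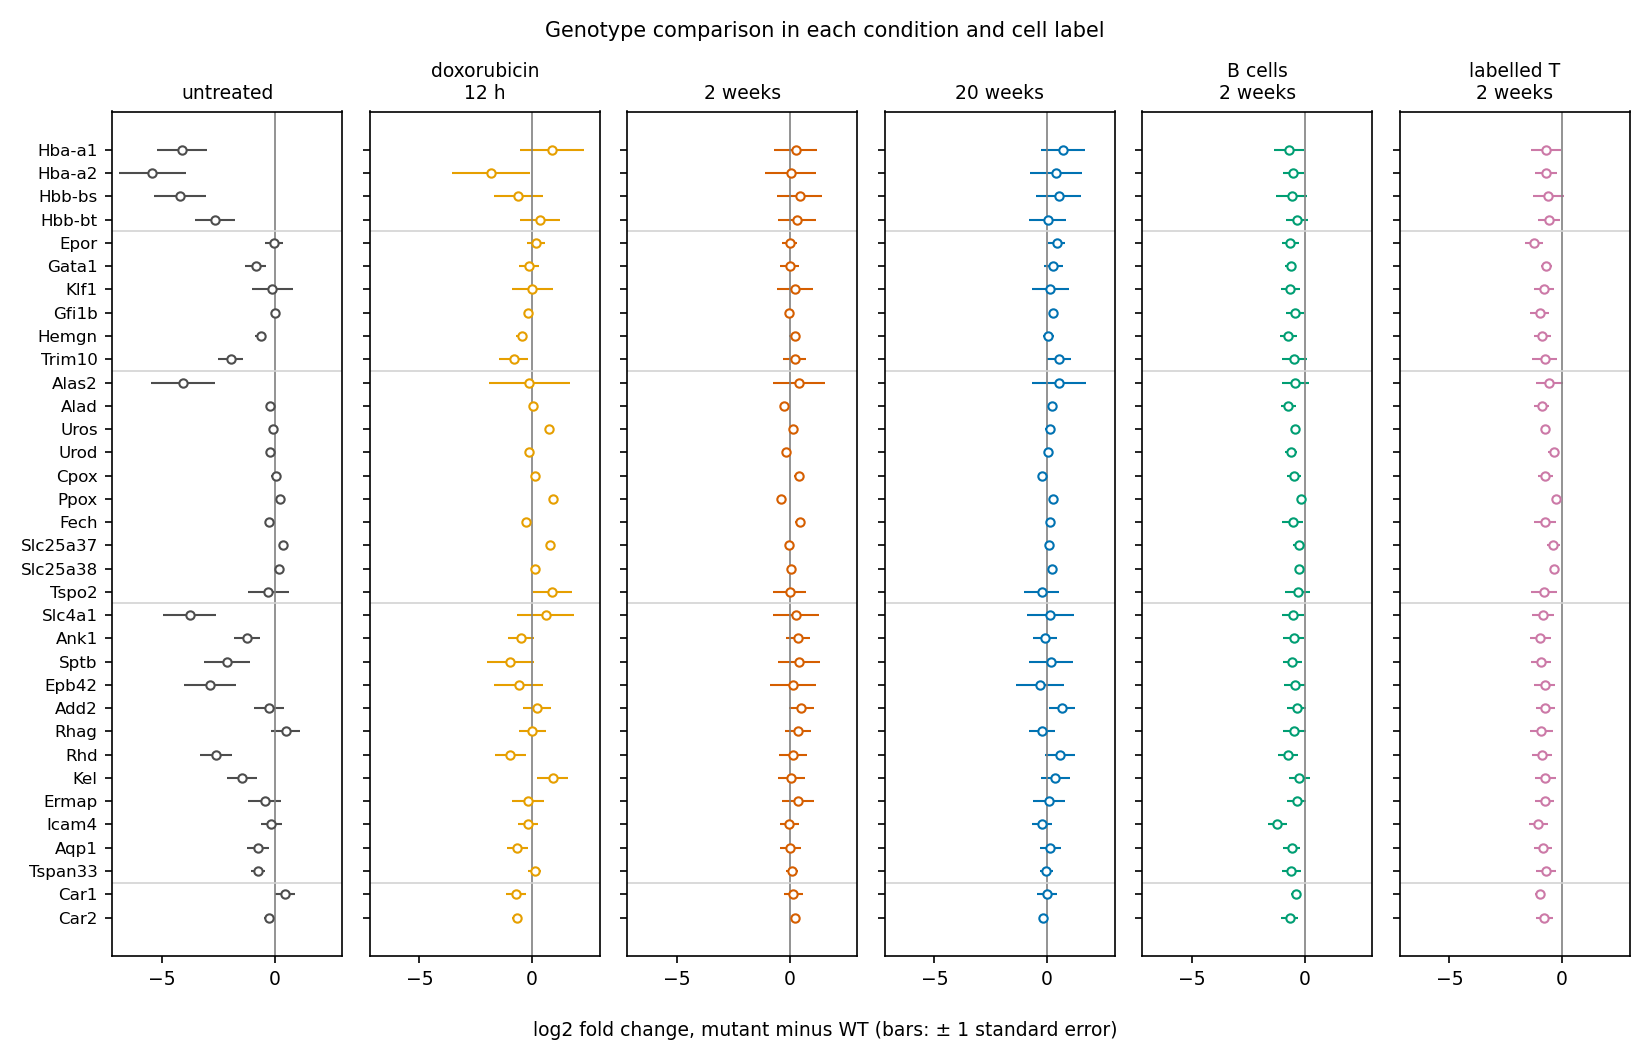
Log2 fold change of mutant over WT for each member, with bars of 1 standard error, in HSPCs of 4 conditions and in the 2-week libraries labelled B and T cells. Open points did not pass, which holds for all 34 members in all 6 panels; the globins, Alas2 and Slc4a1 lie at -5.43 to -2.63 in the untreated panel, where WT replicate 1 is high.

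Other genes of the pathway were counted from lists, where 21.2% of all genes rose and 24.9% fell at 2 weeks. In HSPCs at 2 weeks 13 of 18 other heme, heme export and iron delivery genes rose and 0 fell. Blvrb, a biliverdin reductase of red cells, rose 13.9-fold, and Steap3, the iron reductase of erythroid endosomes, 6.67-fold. Of 17 other red cell membrane and surface genes 13 rose and 1 fell, among them Slc43a1 (2.91-fold), Bsg (2.2-fold) and Dmtn (17.7-fold). Of 14 red cell maturation genes 9 rose and 2 fell, with Atp1b2 at 70.4-fold, Pklr, the red cell pyruvate kinase, at 67.8-fold and Prdx2 at 2.15-fold. Of 18 other erythroid regulators 6 rose and 4 fell, and Zfpm1, the GATA1 partner, rose 3.51-fold, Tal1 2.24-fold and Stat5a 2.11-fold. Of 6 other globins Hbq1b alone passed the filter, and it rose.

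Against HSPCs at 2 weeks, B cell libraries were higher for 10 of 14 maturation genes and lower for 2, where 28.3% of all genes were higher and 25.5% lower. Pklr (14.3-fold) and Atp1b2 (22.4-fold) were the 2 lower ones. Bcl2l1, a survival gene of erythroid cells, was 6.56-fold higher. Of 17 other membrane genes 10 were higher and 2 lower, and of 18 heme and iron genes 4 were higher and 7 lower. In libraries labelled T cells the counts were 10 and 2, 9 and 3, and 6 and 7, against 32.6% and 29.3% of all genes. At 20 weeks 6 of 18 heme and iron genes rose and 2 fell against untreated HSPCs, 4 of 17 membrane genes rose and 2 fell, and 2 of 14 maturation genes rose, against 13.1% and 10.6% of all genes. Tfrc, the transferrin receptor, fell 2.44-fold at 20 weeks and rose 2.07-fold at 2 weeks, both against the same untreated libraries.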

How the data were processed

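Counts per gene in 24 libraries were deposited by the authors as raw featureCounts tables (v2.0.1, GENCODE M28, paired fragments, reverse-stranded, exons), per the file headers. The headers show no option to count multimapping fragments. RNA came from a stranded mRNA kit, and the labels' protocol names 30000 sorted HSPCs for all samples. Both mm39 and mm10 are named in the submitters' processing notes, as are the tools STAR, Subread and FastQC with no version given. Symbols came from a GENCODE M21 table and covered 99.85% of counts.

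Counts were fitted across all genes that passed edgeR's filterByExpr with edgeR 4.0.16 (R 4.3.3, TMM, robust quasi-likelihood). Separate fits held the 16 HSPC libraries, the 8 B and T cell libraries, and all 12 libraries of 2 weeks. Adjusted p-values are Benjamini-Hochberg over all genes, called under 0.05. DESeq2 1.42.0, other scalings, no filter, a replicate block and leaving out libraries were alternatives. Fitted folds use TMM, while levels are CPM of total counts or RPKM with the files' lengths. The fits were tested on simulated data.

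The members and gene lists were chosen with earlier results of these data known. In each comparison up to 8 called members per direction with the smallest adjusted p were named, or the 4 smallest p where none passed, plus the member with the highest RPKM in each role. Other members were named after their values were seen. One gene of the pathway lists is not reported here.

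By correlation, same-numbered libraries of both genotypes did not deviate together (-0.08 to 0.09 over 6 pairs), so numbers were not taken to pair samples. The members themselves did shift in 1 direction in the B and labelled T cell groups. There replicate 1 was above replicate 2 for 33 or 34 of the 34 members in each group. In HSPC groups it was above for 6 to 28. A replicate block is given among the alternatives.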

Additional observations from a re-analysis of the deposited data

How the results depend on the processing

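No named gene changed sign under any alternative. The median genotype difference of the members after doxorubicin, where 0 passed, ran from -0.5 to 0.28 with 1 library left out. RLE scaling changed no count of members called by more than 1.5 times. With no count filter the genotype tests called 14 members in untreated HSPCs, 8 after doxorubicin, 12 for the mean over HSPC conditions, 3 in B cell and 5 in labelled T cell libraries. It called 12 for doxorubicin against untreated, 23 at 20 weeks and 19 for B against labelled T cell libraries, beside 1.43%, 16.6% and 36.8% of all genes. For the change in genotype effect after doxorubicin, at 2 weeks and at 20 weeks it called 11, 12 and 13, beside 1.14%, 1.59% and 1.27% of all genes. DESeq2 called 6 for genotype in untreated HSPCs, 4 for genotype after doxorubicin and 6 for doxorubicin against untreated. It called 4 for B against labelled T cells and 1 for the change in genotype effect at 2 weeks. The shares of all genes that DESeq2 called in these comparisons were 0.511%, 1.03%, 0.325%, 38.1% and 0.464%. The compared groups alone gave 3 calls for genotype after doxorubicin, and library sizes without the globins gave 4 for B against labelled T cells. The replicate block gave 13 calls for genotype in B cell libraries, 26 in labelled T cell libraries, all lower in mutants, and 10 for B against labelled T cells, where it called 1.62%, 0.578% and 51.5% of all genes, and it moved no other count by more than 1.5 times. The causes were not tested.

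With 1 library left out, and the lone library of a group taken to vary like the others, calls ranged from 0 to 2 for genotype in untreated HSPCs, 0 to 2 in B cell libraries, 0 to 2 for doxorubicin, 32 to 33 at 2 weeks and 9 to 11 at 20 weeks. They ranged from 20 to 24 for both comparisons with HSPCs at 2 weeks, 1 to 6 for B against labelled T cells, and 0 to 2 for the change in genotype effect at 2 weeks and at 20 weeks. B against labelled T cells gave 1 call without B WT replicate 1 or labelled T WT replicate 2, and 6 without B mutant replicate 2. Of 704 such values for single named genes 679 kept their side of the threshold, 16 lost it and 9 gained it. Counts of 10 or fewer in 11 member-library values, all in HSPCs, limit globin, Alas2, Klf1, Trim10 and Tspo2 differences there.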

Other observations

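The ratio of beta to alpha globin counts was 2.74 to 3.54 in HSPCs at 2 weeks, 2.98 to 4.5 at 20 weeks and 6.5 to 16.8 after doxorubicin, where the alpha counts were 25 to 44 a library. Hbb-bs made up 68.5% to 81.8% of beta globin counts in HSPCs at 2 weeks and 30.4% to 59.9% after doxorubicin. These ratios and shares carry the same limit from fragments that map to several places.

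Counts of Epor per Gata1 count were 0.541 to 0.585 in B cell libraries and 0.35 to 0.761 in labelled T cell libraries, against 0.377 to 0.385 in HSPCs at 2 weeks. The value of 0.35 belonged to mutant replicate 2, which also had the lowest share of member counts of the libraries labelled T cells (0.476%).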
